A study of Homo sapiens with 8 samples.

Results

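The integrated stress response regulators are 10 genes, ATF4, DDIT3, TRIB3, CHAC1, ATF3, ATF5, CEBPB, SESN2, PPP1R15A and NUPR1, out of 60332 genes measured. They were selected by gene symbol because this pathway had moved in opposite directions under 2 guides, so the hypoxic levels under the guides against control are the measured values behind the choice and are described here with no test. RNA was sequenced from SK-N-MC, an Ewing sarcoma cell line that carries the EWSR1::FLI1 fusion. By the labels, the cells analysed here carried dCas9-KRAB, a dead Cas9 joined to a transcriptional repressor, delivered by lentivirus at an MOI of 10 under selection with puromycin at 1 µg/ml, and were used within 5 passages of it. Control cells held the empty vector and were kept in normoxia or in hypoxia (1% O2 for 16 h). The eKD1 and eKD2 cells each held a guide that placed the repressor beside the GGAA microsatellite enhancer upstream of LOXHD1, and their libraries analysed here are from hypoxia. With 2 libraries in each of 4 groups, eKD1 and eKD2 are each 1 infected and selected cell population as far as the labels say, and a normoxic level of either was not analysed here.

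In the integrated stress response, kinases that sense unfolded protein in the endoplasmic reticulum, scarce amino acids, heme shortage or double-stranded RNA phosphorylate the initiation factor eIF2. General protein synthesis then falls, while translation of a few mRNAs with upstream open reading frames, ATF4 among them, rises. ATF4 is a bZIP transcription factor that pairs with C/EBP proteins and switches on DDIT3 (CHOP), further bZIP factors, amino acid genes and feedback inhibitors. Severe hypoxia is known to engage the pathway. Because ATF4 is set mainly at translation, its mRNA does not measure its protein.

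The levels of LOXHD1 and CA9 matched the labels. LOXHD1, the gene the guides aim at, had 93.0 and 91.1 FPKM in the hypoxic controls, 17.3 and 15.0 with eKD1 and 11.7 and 11.8 with eKD2. The hypoxia marker CA9 was listed at 0 in both normoxic libraries and was between 56.9 and 82.8 FPKM in the 6 hypoxic ones. BNIP3, LDHA and HIF1A had also been chosen as hypoxia checks, and their values are not given here. All 8 Ewing sarcoma markers were expressed in every library, with a summed level of 604 to 725 FPKM. Of 7 markers of other cells, CD3E was listed at 0 throughout and VWF did not pass 0.0465 FPKM, but the leukocyte gene PTPRC had 22.5 and 23.8 FPKM in normoxia, 4.87 and 5.39 in the hypoxic controls, 10.03 and 9.59 with eKD1 and 14.3 and 13.5 with eKD2. Not every marker of other cells that was chosen was measured. The 7 that were measured summed to 28.3 to 30.8 FPKM in normoxia and 10.6 to 11.2 in the hypoxic controls. With eKD1 they summed to 17.9 to 19.4 and with eKD2 to 19.0 to 23.2. PTPRC was only part of this sum in every group, and the markers behind the rest are not named here. The part of these markers in the results was not tested. Relative depth was 76.0% and 55.7% of the deepest library in normoxia and 100% and 96.0% in the hypoxic controls. It was 82.7% and 61.2% with eKD1 and 77.6% and 77.1% with eKD2. FPKM totals were 865107 and 877580 in normoxia and 1041460 and 1018470 in the hypoxic controls. They were 997300 and 962912 with eKD1 and 953073 and 959843 with eKD2. Depth and totals thus differed between the groups compared. In bulk RNA, fewer cells expressing a gene and less RNA per cell cannot be told apart.

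Promoter sequence is shown for the 4 members whose window held 1 of 3 motifs, which were searched because the pathway runs through bZIP factors and was measured in hypoxia. The windows run from 250 bases before to 50 bases after a RefSeq transcription start on GRCh38.p14, and 9 of the 10 members had at least 1 window (17 windows in all). NUPR1 had none. Capitals mark the motif, and each sequence is written 5′ to 3′ on the plus strand, which is the coding strand of all 4 genes. CHAC1 (chr15:40953221-40953520) and ATF3 (chr1:212565157-212565456) held the C/EBP-ATF composite core TGATGNAA, in CHAC1 as its reverse complement. PPP1R15A (chr19:48872171-48872470) held the palindromic cyclic AMP response element TGACGTCA. ATF4 (chr22:39520309-39520608) held ACGTG, 1 form of the hypoxia response element core. It matched on both strands, overlapping itself, because the letters there are the palindrome CACGTG. The form GCGTG was not searched and is not marked where it occurs, as in the windows of CHAC1 and PPP1R15A.

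CHAC1: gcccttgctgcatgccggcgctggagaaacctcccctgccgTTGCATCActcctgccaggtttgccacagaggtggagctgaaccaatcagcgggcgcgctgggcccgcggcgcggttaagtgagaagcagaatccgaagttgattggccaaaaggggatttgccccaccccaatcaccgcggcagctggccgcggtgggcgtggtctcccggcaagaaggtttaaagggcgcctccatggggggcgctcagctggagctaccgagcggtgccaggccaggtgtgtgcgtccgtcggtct
ATF3: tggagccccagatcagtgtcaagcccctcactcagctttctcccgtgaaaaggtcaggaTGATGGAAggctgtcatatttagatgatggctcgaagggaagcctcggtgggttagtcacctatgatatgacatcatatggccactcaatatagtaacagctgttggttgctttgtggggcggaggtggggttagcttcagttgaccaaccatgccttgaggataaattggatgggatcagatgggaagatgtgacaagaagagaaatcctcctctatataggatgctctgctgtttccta
PPP1R15A: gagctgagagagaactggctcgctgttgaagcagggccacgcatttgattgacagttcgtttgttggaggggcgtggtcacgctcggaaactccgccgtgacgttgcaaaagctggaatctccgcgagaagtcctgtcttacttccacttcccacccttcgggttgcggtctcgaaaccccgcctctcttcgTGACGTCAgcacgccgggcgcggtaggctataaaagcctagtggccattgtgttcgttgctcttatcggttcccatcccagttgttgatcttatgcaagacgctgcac
ATF4: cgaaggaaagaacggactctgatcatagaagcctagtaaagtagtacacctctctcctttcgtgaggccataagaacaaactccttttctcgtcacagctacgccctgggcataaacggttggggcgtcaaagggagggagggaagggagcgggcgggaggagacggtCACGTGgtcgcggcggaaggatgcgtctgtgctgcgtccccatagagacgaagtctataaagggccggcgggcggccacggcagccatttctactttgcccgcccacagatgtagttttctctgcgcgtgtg

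The composite core began 209 bases before the start in CHAC1 and 191 bases before it in ATF3. It was in 2 of 9 members, against 4.46% of the 27305 genes with a window and 3.62% of the 35116 windows, with both strands searched. The cyclic AMP response element lay 58 bases before the start of PPP1R15A, in 1 of 9 members against 2.25% of genes and 1.85% of windows. The ACGTG form of the hypoxia response element core was in 1 of 9 members against 24.9% of genes and 21.4% of windows. The GCGTG form was not counted. A match describes these letters in the window and nothing about binding.

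All 10 members passed the filter on low values, NUPR1 only through libraries of control hypoxia and eKD2. Of the other 9, hypoxia in control cells raised 8. The largest differences were in ATF3, an early stress-induced repressor of the ATF family, and CHAC1, an enzyme that degrades glutathione, at 5.92-fold and 5.18-fold. CEBPB was the member that did not pass the test. The median difference on the log2(FPKM + 1) scale was 1.51 over these 9 members, 1.40 with NUPR1 and 0.01 over all 15372 genes tested. In this comparison 32.2% of all genes were called by limma (adjusted p below 0.05), 16.2% as higher and 16% as lower in hypoxia. Both hypoxic libraries lay above both normoxic ones for the same 8 members and for NUPR1, which was also so for 35.9% of all genes tested. These control hypoxia libraries are also the ones against which the guides were compared when the pathway was picked, so the hypoxia difference is not independent of that choice. Every call in this comparison, for members and for all genes, was lost when any 1 of the 4 libraries was left out, while 9 to 10 members, NUPR1 included, had an unadjusted limma p below 0.05.

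ATF4 (chr22:39915700-39918688, GRCh37), the transcription factor at the centre of the pathway, had the highest level per length of the 10. Its FPKM was 259.9 and 273 in the normoxic libraries, 331 and 333 in the hypoxic controls, 319 and 304 with eKD1 and 381 and 405 with eKD2. The 4 groups did not overlap, but they lay within a narrow range. Hypoxia moved ATF4 by 1.25-fold (log2 difference 0.32 ± 0.05, SE, limma adjusted p = 0.0187). Scaling every library to the same FPKM total lowered this difference to 0.08 (limma adjusted p = 0.257) and moved the median of all genes to −0.19.

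DDIT3 (chr12:57910371-57915520), which encodes CHOP, the pro-apoptotic partner of C/EBP proteins, had 40.9 and 39.3 FPKM in normoxia and 141 and 136 in the hypoxic controls. Its eKD1 libraries read 55.8 and 49.1 and its eKD2 libraries 198 and 205. The groups did not overlap, and eKD1 sat close to normoxia. Hypoxia raised DDIT3 3.44-fold (log2 difference 1.76 ± 0.06, SE, limma adjusted p = 0.00505). DDIT3 overlaps MARS, which encodes methionyl-tRNA synthetase, by 982 bases and MBD6 by 1028 bases, both on the opposite strand, and the protein-coding gene ENSG00000285133 overlaps it by 2769 bases on the same strand, so reads there cannot be assigned to 1 gene with certainty in these unstranded libraries. MARS itself had 449 and 525 FPKM in normoxia, 387 and 334 in the hypoxic controls, 254 and 274 with eKD1 and 665 and 811 with eKD2.

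ATF3 (chr1:212738676-212794119) had 7.27 and 5.31 FPKM in normoxia and 36.4 and 38.0 in the hypoxic controls. Its eKD1 libraries, at 29.9 and 38.6, lay on either side of the hypoxic controls, and its eKD2 libraries were at 180.5 and 151. ATF3 was therefore the member whose hypoxic level in eKD1 overlapped control and the one with the largest fold in eKD2. Hypoxia raised it 5.92-fold (log2 difference 2.40 ± 0.17, SE, limma adjusted p = 0.00805).

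ATF5 (chr19:50431959-50437192), a bZIP factor that is itself translated under stress, had 83.0 and 85.2 FPKM in normoxia and 164 in both hypoxic controls. Its eKD1 libraries read 48.5 and 52.4 and its eKD2 libraries 207 and 214. It was the only member with eKD1 below normoxia, at 0.600 of the normoxic mean. Hypoxia raised ATF5 1.95-fold (log2 difference 0.96 ± 0.05, SE, limma adjusted p = 0.00665). On the opposite strand, the protein-coding gene ENSG00000269179, listed at 0 in every library, covers all 5234 bases of ATF5, and NUP62 and IL4I1 overlap it by 1063 and 838 bases.

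CEBPB (chr20:48807367-48809205), a C/EBP factor that can pair with ATF4 and with CHOP, had 39.9 and 48.8 FPKM in normoxia and 47.4 and 48.7 in the hypoxic controls. Its eKD1 libraries read 52.4 and 56.9 and its eKD2 libraries 65.7 and 63.2. The normoxic and hypoxic controls overlapped, and both guides lay above control. The hypoxia difference was 0.12 ± 0.12 in log2 units (SE, limma adjusted p = 0.486). It changed sign, to −0.12, when FPKM totals were made equal, and to −0.022 without replicate 1 of control normoxia.

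Among the effectors, CHAC1 (chr15:41245160-41248710) had 4.67 and 3.65 FPKM in normoxia and 21.4 and 21.7 in the hypoxic controls. It was at 10.2 and 9.04 with eKD1 and at 80.9 and 87.2 with eKD2. No group overlapped another, and eKD1 lay between normoxia and the hypoxic controls. Hypoxia raised CHAC1 5.18-fold (log2 difference 2.13 ± 0.15, SE, limma adjusted p = 0.00801).

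TRIB3 (chr20:343479-378203), a pseudokinase that binds ATF4 and CHOP and limits them, had 6.63 and 8.34 FPKM in normoxia and 22.4 and 23.6 in the hypoxic controls. Its eKD1 libraries, at 7.98 and 9.59, overlapped normoxia, and its eKD2 libraries were at 35.95 and 37.3. Hypoxia raised TRIB3 3.07-fold (log2 difference 1.51 ± 0.14, SE, limma adjusted p = 0.00976).

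SESN2 (chr1:28586029-28609002), a sestrin that restrains mTORC1 when leucine is scarce, had 2.27 and 3.19 FPKM in normoxia and 12.1 and 13.97 in the hypoxic controls. Its eKD1 libraries read 5.45 and 5.40 and its eKD2 libraries 28.9 and 29.0. The groups did not overlap. Hypoxia raised SESN2 4.78-fold (log2 difference 1.92 ± 0.19, SE, limma adjusted p = 0.0101).

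PPP1R15A (chr19:49375469-49379316) encodes GADD34, the inducible subunit that directs protein phosphatase 1 to eIF2 and ends the response. It had 15.4 and 14.4 FPKM in normoxia, 37.3 and 39.0 in the hypoxic controls, 21.8 and 24.7 with eKD1 and 98.3 and 96.2 with eKD2, with no overlap between groups. Hypoxia raised PPP1R15A 2.55-fold (log2 difference 1.30 ± 0.09, SE, limma adjusted p = 0.0078).

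NUPR1 (chr16:28544029-28550329), a small chromatin protein induced by stress, was near the limit of the data. It had 0.312 and 0.425 FPKM in normoxia, 1.498 and 2.22 in the hypoxic controls and 4.05 and 2.64 with eKD2. In eKD1 it was listed at 0 in replicate 1 and at 0.774 FPKM in replicate 2. NUPR1 passed the filter on low values through groups in which it was high, control hypoxia and eKD2, so its call is not counted with those of the other members. Its difference in hypoxia was 1.05 ± 0.21 in log2 units (SE, limma adjusted p = 0.0333).

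**Figure D1:**
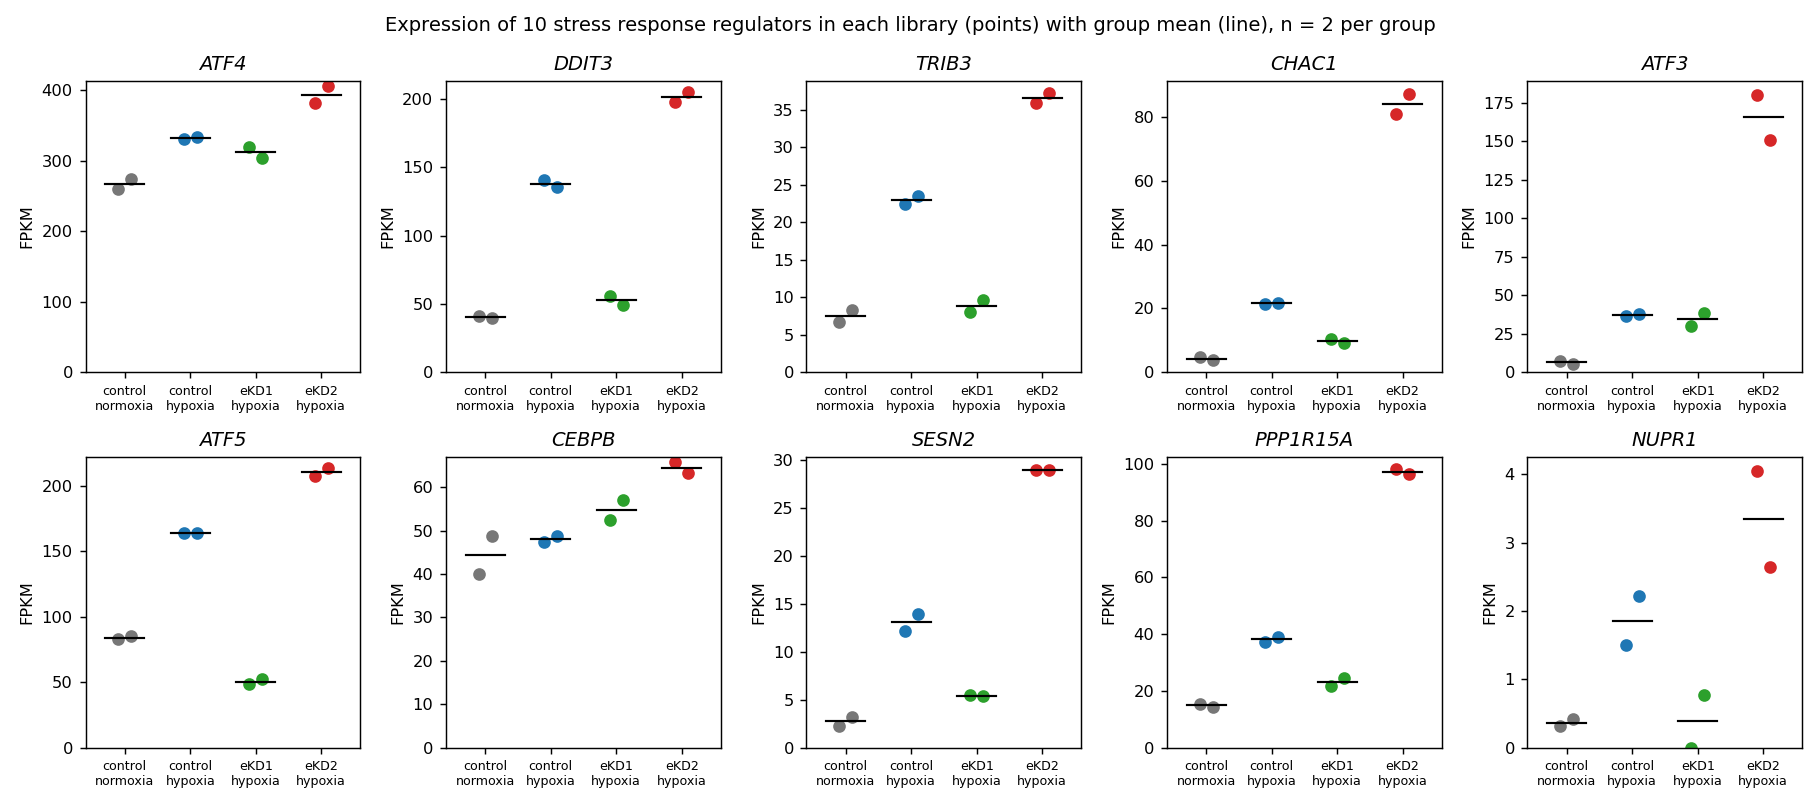
Expression of each member in FPKM (linear axis from 0) in the 8 libraries, by group, with a point per library and a line at the mean of the 2. Normoxia is lowest for 9 members (ATF5 is lowest in eKD1), and eKD2 is highest for all 10.

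**Figure D2:**
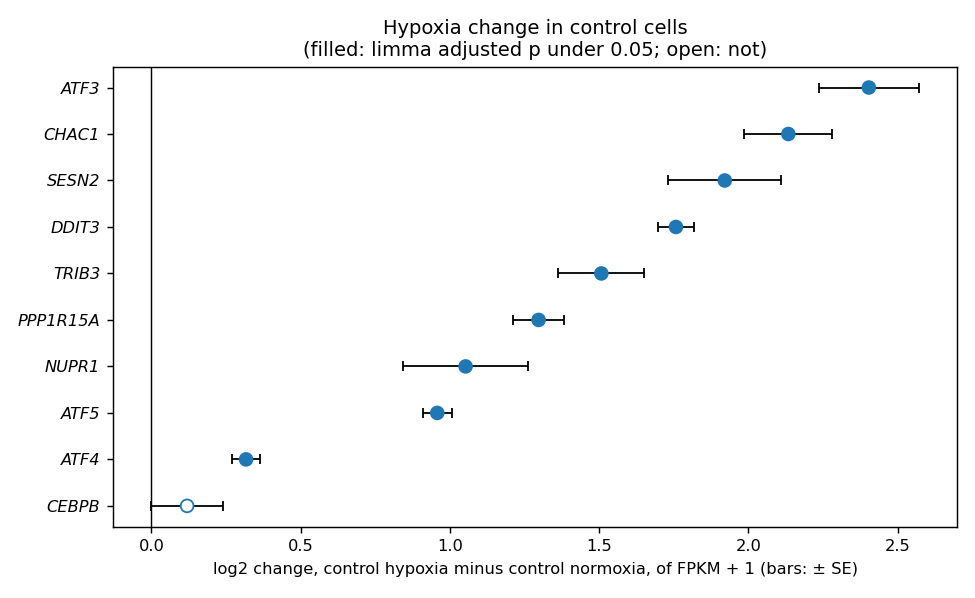
Log2 difference of FPKM + 1 between control hypoxia and control normoxia for each member, with bars of ± 1 SE from limma and filled points where the adjusted p is below 0.05. ATF3 is highest at 2.40 and CEBPB, the open point, lowest at 0.12.

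Under the guides, the members separated into a set that was lower in eKD1 and higher in eKD2 and a pair that was not. Because this contrast chose the pathway, the values that follow describe the members and carry no test. Both eKD1 libraries were below both control hypoxia libraries for 8 members and above them for CEBPB, and ATF3 overlapped. Over all genes tested, 26% were lower and 27.6% higher by the same count. Both eKD2 libraries were above control for all 10 members, as they were for 35.8% of all genes. The members with eKD1 below and eKD2 above control were ATF4, DDIT3, TRIB3, CHAC1, ATF5, SESN2, PPP1R15A and NUPR1, a pattern held by 4.3% of all genes tested. Under equal FPKM totals, ATF4 in eKD1 overlapped control and the number lower in eKD1 was 7.

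The members differed widely in how far they moved. Relative to the control hypoxia mean, the eKD1 mean was 30.7% for ATF5, the lowest of the 9 members other than NUPR1. NUPR1 was at 20.8%, a mean of 1 library at 0 and 1 at 0.774 FPKM, and its log2 difference of −1.09 was nearer 0 than the −1.68 of ATF5. DDIT3 at 38.0%, TRIB3 at 38.2%, SESN2 at 41.6% and CHAC1 at 44.7% formed a middle range, and PPP1R15A was at 60.9%. ATF4 at 93.8% and ATF3 at 92.0% stayed near control, and CEBPB was at 114%. The median log2 difference of eKD1 from control was −1.09 over the 10, also without NUPR1, against 0.00 over all genes.

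In eKD2 the order was different. ATF3 at 445% and CHAC1 at 390.1% of the control mean were farthest above it, followed by PPP1R15A at 255% and SESN2 at 222%. NUPR1 was at 180.0%, TRIB3 at 159%, DDIT3 at 146%, CEBPB at 134%, ATF5 at 128% and ATF4 at 118%. The median log2 difference from control was 0.62, against 0.05 over all genes. ATF5, among the lowest in eKD1, was thus among the nearest to control in eKD2, while ATF3 was near control in eKD1 and farthest from it in eKD2. The eKD1 and eKD2 differences share the control hypoxia libraries.

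**Figure D3:**
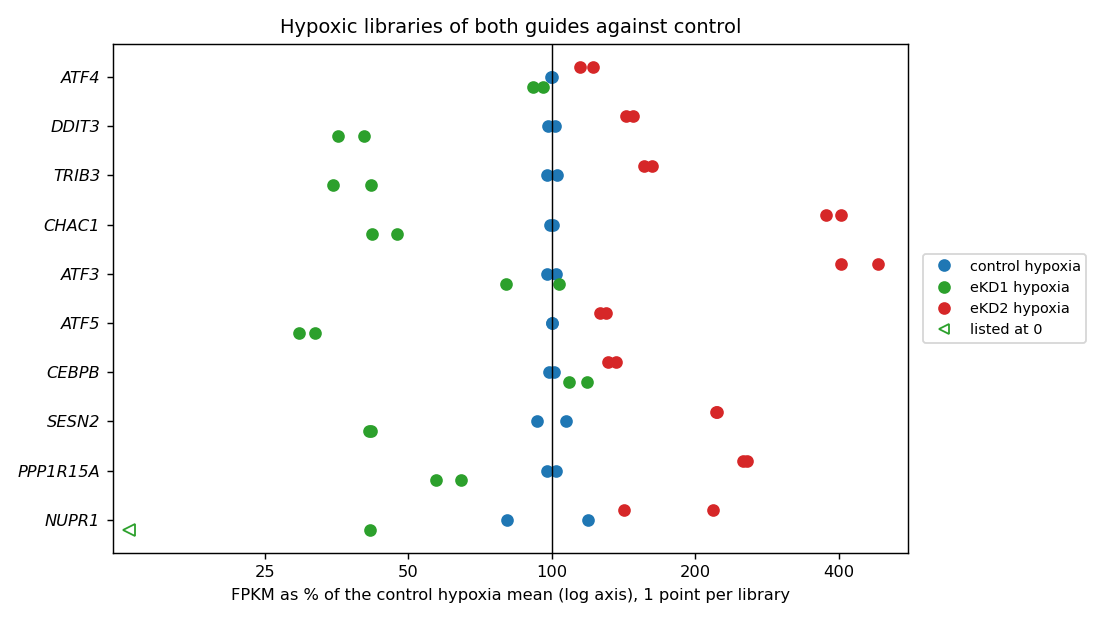
Each hypoxic library as a percentage of the control hypoxia mean of the same gene, on a log axis, with a point per library and an open triangle for the eKD1 library in which NUPR1 is listed at 0. All eKD2 points lie to the right of the control points, and the eKD1 points lie to the left except for CEBPB and 1 library of ATF3.

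Set directly against each other, both eKD2 libraries were above both eKD1 libraries for all 10 members, a count that 31.9% of all genes shared. The median log2 difference was 1.99. The means differed 8.72-fold for CHAC1, 5.33-fold for SESN2 and 4.84-fold for ATF3. PPP1R15A, ATF5, TRIB3 and DDIT3 were between 3.84-fold and 4.19-fold, and ATF4 and CEBPB were at 1.26-fold and 1.18-fold. NUPR1 had a ratio of 8.65, which rests on its eKD1 mean with 1 library at 0.

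The levels were also set against control normoxia, and normoxic libraries of the guides were not analysed here. In eKD1 hypoxia, 7 members were above both normoxic libraries, as were 31.9% of all genes tested. ATF5 was below them, as were 29.9% of all genes, and TRIB3 and NUPR1 overlapped them. ATF3 in eKD1 was 5.45-fold its normoxic mean, CHAC1 2.32-fold, SESN2 1.99-fold, PPP1R15A 1.56-fold and DDIT3 1.31-fold. In eKD2 hypoxia all 10 were above normoxia, as were 37.5% of all genes, by 26.4-fold for ATF3, 20.2-fold for CHAC1, 10.6-fold for SESN2 and 5.02-fold for DDIT3. When the 4 groups of a member were ordered by mean, neighbouring groups were separated at all 3 steps for 6 members and at 2 steps for 4, against 13.2% and 29.4% of all genes tested. The overlapping step was between normoxia and eKD1 for TRIB3 and NUPR1, between eKD1 and control hypoxia for ATF3, and between normoxia and control hypoxia for CEBPB.

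The other genes of the pathway were taken from 6 lists that hold no member. The lists were written with earlier results of these data known, and the amino acid list partly repeats genes on which the opposite directions were first seen, so its direction is not independent evidence. Of the 121 list genes tested, hypoxia in control cells raised 46 and lowered 15 (limma adjusted p below 0.05), against 16.2% and 16% of all genes. Under equal FPKM totals 59 were called, 31 of them higher. In eKD1 none was called by limma against control hypoxia, where 0.0651% of all genes were called (10 genes, and 3337 at an unadjusted p below 0.05). Of the list genes, 43 had an unadjusted p below 0.05 in eKD1. In eKD2, 41 list genes were higher and 6 lower, against 5.8% and 3.81% of all genes. Between the guides, 17 were higher and 1 lower in eKD2, against 0.286% and 0.117% of all genes (3623 genes at an unadjusted p below 0.05). All of these list calls were lost when 1 library was left out.

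Of 19 genes for eIF2 kinases, phosphatase subunits and initiation factors, hypoxia raised 3 and lowered 5, against 16.2% and 16% of all genes, with a median log2 difference of 0.03 (−0.21 under equal FPKM totals). EIF2S1, the eIF2 subunit that the kinases phosphorylate, fell by 0.75 on the log2 scale (limma adjusted p = 0.0201), and EIF2B5 and EIF2B4, subunits of the exchange factor, fell by 0.59 and 0.55. In eKD1 no gene of the list was called, and 4 of the 19 had an unadjusted limma p below 0.05, against 3337 of all 15372 genes. The largest eKD1 difference was −0.42 in EIF2S2 (limma adjusted p = 0.12). In eKD2, 2 were higher and none lower, against 5.8% and 3.81% of all genes. EIF2B2 rose by 0.49 and EIF2S2 by 0.32, and IMPACT, an inhibitor of GCN2 activation, differed by 0.55 (limma adjusted p = 0.114). EIF2AK3, which encodes the kinase PERK, differed by −0.27 in eKD1 and EIF2AK4, which encodes GCN2, by −0.29 (limma adjusted p = 0.638 and 0.308). Between the guides no gene of the list was called, and 10 had an unadjusted limma p below 0.05, against 3623 of all 15372 genes. The largest differences there were 0.75 in EIF2S2, 0.59 in IMPACT and −0.57 in GCN1 (limma adjusted p = 0.0656, 0.152 and 0.147).

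Among other bZIP factors, 18 of 20 were tested (CEBPA and FOSL1 were below the filter). Hypoxia raised 9 and lowered 2, against 16.2% and 16% of all genes. NFIL3, JUND and FOSL2 rose the most, by 1.39, 1.29 and 1.22 on the log2 scale. In eKD1 no factor was called, and 4 of the 18 had an unadjusted limma p below 0.05, against 3337 of all 15372 genes. The AP-1 subunits JUN and FOS had eKD1 differences of 0.77 and 0.50 (limma adjusted p = 0.102 and 0.504). CEBPG, a dimer partner of ATF4, had one of −0.45 (limma adjusted p = 0.135). In eKD2, 6 were higher and none of the list was lower, against 5.8% and 3.81% of all genes. The largest were JUN at 1.94, JDP2 at 1.63 and NFE2L2, the antioxidant regulator NRF2, at 0.92. JDP2, CEBPG and JUN were higher in eKD2 than in eKD1, by 1.88, 1.33 and 1.17. These 3 were the calls between the guides, where 0.286% of all genes were higher and 0.117% lower.

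Of 19 tested effectors of ATF4 and CHOP outside the 10 members, hypoxia raised 10 and lowered 1, against 16.2% and 16% of all genes. DDIT4, an inhibitor of mTORC1 that HIF also induces, rose by 5.82 on the log2 scale (limma adjusted p = 0.0014). STC2, a secreted glycoprotein, rose by 1.78 and the cell cycle inhibitor CDKN1A by 1.72. FAM129A was the gene that fell, by 0.48. In eKD1 none was called, and 3 of the 19 had an unadjusted limma p below 0.05, against 3337 of all 15372 genes. DDIT4 and EIF4EBP1, a repressor of cap-dependent translation, differed in eKD1 by −0.43 and −0.42 (limma adjusted p = 0.102 for both). AKNA differed by −0.56 (limma adjusted p = 0.546). In eKD2, 7 were higher and 1, the autophagy receptor SQSTM1, was lower, against 5.8% and 3.81% of all genes. ADM2, a secreted peptide, rose by 1.92, FAM129A by 1.11 and the lipoprotein receptor VLDLR by 1.10. Between the guides 2 were called higher in eKD2 and none lower, against 0.286% and 0.117% of all genes. They were the BH3-only gene PMAIP1, by 1.30, and EIF4EBP1, by 0.74. ADM2 differed by 1.95 (limma adjusted p = 0.0525).

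The medians of the 33 amino acid genes had the sign of the member medians in every comparison, except in hypoxia under equal FPKM totals. Those of the effectors also had it, at 0.64 in hypoxia, −0.10 in eKD1, 0.33 in eKD2 and 0.71 between the guides. The effector medians kept these signs under equal FPKM totals. Medians of the eIF2 list had the same signs before rescaling, at 0.03, −0.04, 0.01 and 0.15, against 0.01, 0.00, 0.05 and 0.05 over all genes. The remaining lists did not have these signs in every comparison. In the same order, the medians of the other bZIP factors were 0.36, 0.07, 0.46 and 0.25. Those of the endoplasmic reticulum list were 0.45, 0.10, −0.004 and −0.21. Those of the mitochondrial list were −0.07, −0.005, 0.15 and 0.22. Hypoxia raised 14 and lowered 2 of the amino acid genes, against 16.2% and 16% of all genes. PCK2, a mitochondrial enzyme that makes phosphoenolpyruvate, rose by 2.72 and ASNS, asparagine synthetase, by 2.07, while SLC7A11, the cystine transporter, fell by 1.41. The median of the list was 0.23, and −0.01 under equal FPKM totals. In eKD1 the median was −0.36. An unadjusted limma p below 0.05 was held by 20 of the 33 genes, against 3337 of all 15372, and an adjusted one by none of the 33. ASNS, PCK2 and CBS, an enzyme of the route from homocysteine to cysteine, had the largest differences in eKD1, −1.57, −1.53 and −1.09 (limma adjusted p = 0.0838, 0.102 and 0.102). In eKD2, 22 of the 33 rose, against 5.8% of all genes. The median was 0.83, with SLC7A11 at 3.004, the arginine transporter SLC7A1 at 1.55 and PCK2 at 1.46. Between the guides 12 were higher in eKD2, against 0.286% of all genes, led by PCK2 at 2.99, ASNS at 2.49 and the serine enzyme PSAT1 at 2.02.

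The endoplasmic reticulum and mitochondrial lists held genes of both directions under eKD2. Of 21 genes of the chaperone, XBP1 and ATF6 branches, hypoxia raised 9 and lowered 1, against 16.2% and 16% of all genes. HERPUD1, a component of ER-associated degradation, rose by 0.97, CRELD2 by 0.84 and HSPA5, the chaperone BiP, by 0.81. In eKD1 none was called, and 10 of the 21 had an unadjusted limma p below 0.05, against 3337 of all 15372 genes. The largest eKD1 differences were 0.72 in SDF2L1, −0.58 in ERN1, which encodes the stress sensor IRE1, and −0.49 in HERPUD1 (limma adjusted p = 0.133, 0.238 and 0.218). In eKD2, 1 gene of this list was higher and 3 were lower, against 5.8% and 3.81% of all genes. HERPUD1 was the list gene that rose, by 0.90, and HSPA5, CALR and PDIA4 fell, by 0.82, 0.30 and 0.29. Between the guides none was called higher in eKD2 and 1 was called lower, against 0.286% and 0.117% of all genes. The lower gene was HSPA5, at −0.85 on the log2 scale. HERPUD1 and ERN1 differed by 1.39 and 1.08 (limma adjusted p = 0.0766 and 0.0784). Of 11 genes of the mitochondrial stress arm, hypoxia raised 1 and lowered 4, against 16.2% and 16% of all genes. The protease LONP1 rose by 0.68, and the lowered genes included HSPE1 at −0.87 and OMA1 at −0.69. In eKD1 none was called, and 2 of the 11 had an unadjusted limma p below 0.05, against 3337 of all 15372 genes. The largest eKD1 differences were 0.75 in OMA1, 0.33 in KIAA0141 and −0.28 in HSPA9 (limma adjusted p = 0.14, 0.367 and 0.225). In eKD2, 3 of this list were higher and 2 lower, against 5.8% and 3.81% of all genes. OMA1, the protease that starts mitochondrial signalling to the integrated stress response, rose by 1.28, CLPX by 0.60 and HSPA9 by 0.46. The chaperonins HSPE1 and HSPD1 fell by 0.79 and 0.33. Between the guides none of the 11 was called, and 7 had an unadjusted limma p below 0.05, against 3623 of all 15372 genes. The largest differences there were −0.80 in HSPE1, 0.74 in HSPA9 and 0.58 in CLPX (limma adjusted p = 0.0529, 0.0779 and 0.11).

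**Figure D4:**
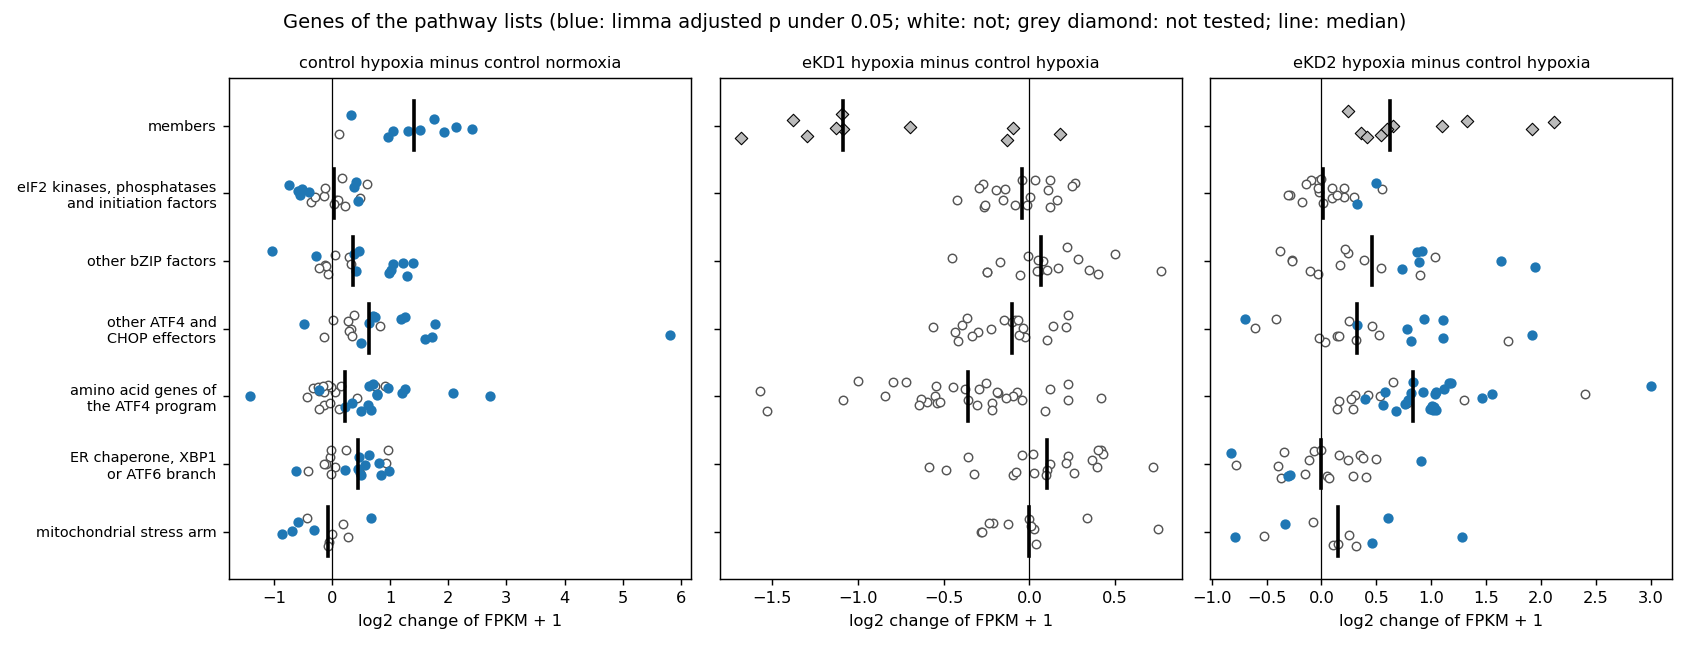
Log2 difference of FPKM + 1 for every tested gene of the members and of 6 pathway lists, in hypoxia against normoxia, eKD1 against control hypoxia and eKD2 against control hypoxia, with a bar at each median, blue for an adjusted p below 0.05 and grey diamonds for members that were not tested in that comparison. The member medians are 1.40, −1.09 and 0.62, and those of the amino acid genes are 0.23, −0.36 and 0.83.

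The members also differed in how closely they shared 1 profile across the 8 libraries. Pearson correlation with the mean standardised profile of the members was 0.996 for SESN2, 0.993 for PPP1R15A and 0.989 for CHAC1, and lowest for ATF5 at 0.827 and CEBPB at 0.764. These are descriptions over 8 libraries that form 4 groups, and each member is part of the mean. Among 10671 other genes with a mean of at least 5 FPKM, the profile was most like those of SLC7A5 and PCK2 (both 0.993), ULBP1 (0.993), RIPK2 (0.992), PKDCC (0.991) and EIF1 (0.990). SLC7A5 and PCK2 are on the amino acid list, and the other 4 are on none of the 6. That list partly repeats genes behind the choice of pathway, so the likeness of its genes is not independent evidence. SLC7A5 had 19.6 and 21.4 FPKM in normoxia, 52.9 and 48.2 in the hypoxic controls, 30.03 and 27.3 with eKD1 and 104 and 107 with eKD2. The most opposed profiles were those of AHSA1 (−0.990), BRI3BP (−0.991) and RTL6 (−0.994). AHSA1 had 466 and 489 FPKM in normoxia, 328 and 319.8 in the hypoxic controls, 425 and 381 with eKD1 and 257 and 244 with eKD2.

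**Figure D5:**
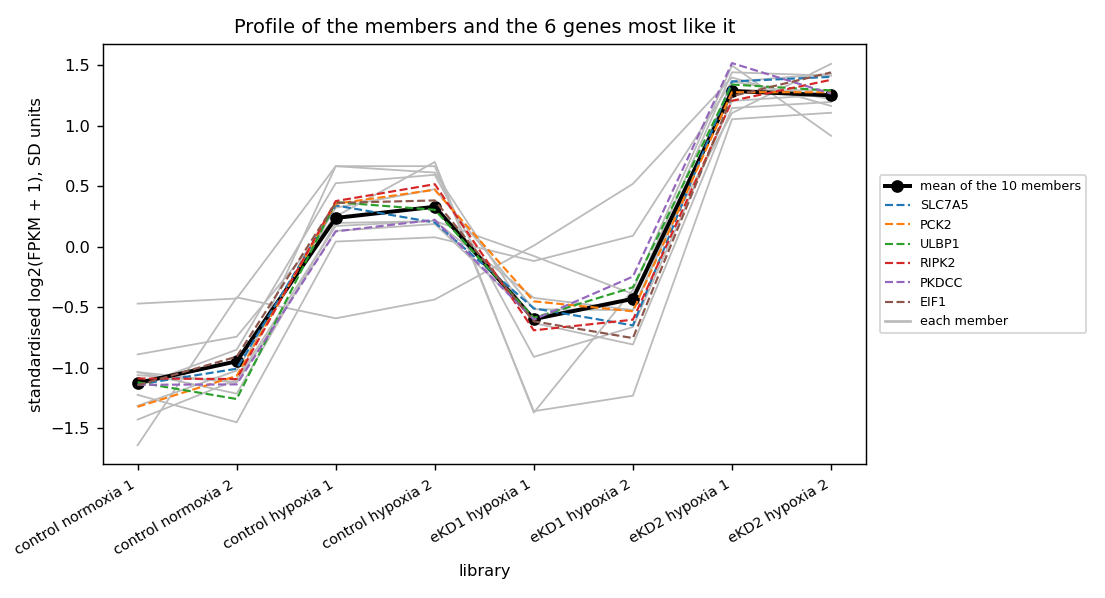
Standardised log2(FPKM + 1) in each of the 8 libraries for the members (grey), their mean (black) and the 6 most similar genes (dashed), in SD units. The mean profile is lowest in normoxia, intermediate in control hypoxia, lower again in eKD1 and highest in eKD2.

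Gene length was not used in the selection. The median span of the 10 was 5192 bases, against 33797 over 12249 tested protein-coding genes, and 8 of the 10 were below that median (TRIB3 and ATF3 were not). The summed length of their exons had a median of 3092 bases, against 5391. Over the promoter windows, the median GC content was 63.3% for the 9 matched members and 58.7% for all windows. No test was made of these descriptions.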

How the data were processed

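Poly-A selected libraries of SK-N-MC cells were sequenced as single-end reads by a protocol that does not mark strand. The authors checked reads with FastQC, aligned them to GRCh37 (hg19) with STAR and deposited FPKM values from cufflinks and cuffnorm in 1 table. How cuffnorm scaled the libraries to each other is not stated. Absolute depth is therefore unknown and relative depth was read from the spacing of low values. The study tested read counts with DESeq2, which FPKM values do not allow.

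Groups and replicate numbers came from the sample titles. The 2 libraries of a group are biological duplicates per the study, and p-values measure only the spread between them, which may be technical. The 15372 of 60332 genes that reached 1 FPKM in 2 or more of the 8 libraries were analysed as log2(FPKM + 1), a scale that understates changes of low genes. Each comparison of 2 against 2 libraries was fitted with limma 3.58.1 in R 4.3.3 (eBayes with variance trend, two-sided, Benjamini-Hochberg adjustment over all genes, called at adjusted p under 0.05). SE and adjusted p are from these fits. The members and lists were chosen with earlier results of these data known. Genes named from a list are up to 3 called with the largest change in each comparison, or the largest where fewer were called, and for likeness the 6 highest and 3 lowest correlations. The list genes FAM129A in hypoxia, SQSTM1, PDIA4, HSPD1 and HSPA9 in eKD2 were named after their values were seen. Member positions are from GENCODE on GRCh37, and promoter windows are RefSeq sequence on GRCh38.p14.

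The results were recomputed with a pseudocount of 0.1, without the filter, with a mean of at least 5 FPKM, under 2 rescalings, in 1 fit of all groups, without the variance trend, with a replicate block and with each library left out.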

Additional observations from a re-analysis of the deposited data

Results flagged for a closer look

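The difference between the 2 guides, tested by limma on eKD2 against eKD1 in hypoxia (adjusted p under 0.05 over 15372 genes), drew attention to 18 genes of the pathway lists. For each, both eKD2 libraries were set against both eKD1 libraries, and the values are log2 differences of FPKM + 1, eKD2 minus eKD1. Among transcription factors they were 1.88 for JDP2, 1.33 for CEBPG and 1.17 for JUN. Among effectors they were 1.30 for PMAIP1 and 0.74 for EIF4EBP1. Among synthetic enzymes they were 2.99 for PCK2, 2.49 for ASNS, 2.02 for PSAT1 and 1.65 for MTHFD2. Among amino acid transporters they were 1.93 for SLC7A1, 1.84 for SLC7A5 and 1.33 for SLC3A2. Among tRNA synthetases they were 1.56 for both AARS and GARS, 1.203 for YARS, 1.04 for SARS and 1.02 for NARS. HSPA5 was the gene that was lower in eKD2, at −0.85. Of the 121 list genes tested, 17 were higher and 1 lower, against 0.286% and 0.117% of all genes. The lists were written with earlier results known, and the amino acid list partly repeats genes behind the choice of pathway. These calls are therefore not independent evidence. No list gene was called between the guides without the variance trend or with a replicate block.

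In addition, 8 of the 10 members had both eKD1 libraries below and both eKD2 libraries above control hypoxia. This difference between the guides was not tested, because the pathway was selected for it.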

How the results depend on the processing

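The median difference of the members in hypoxia, 1.40, was 1.70 with a pseudocount of 0.1, 1.51 with a mean of at least 5 FPKM, 1.18 with equal FPKM totals and 1.35 to 1.45 with 1 library left out. In eKD2 the median, 0.62, was 0.74 with that pseudocount, 0.56 with median-of-ratios rescaling, 0.71 with equal FPKM totals and 0.59 to 0.73 with 1 library left out. In eKD1, −1.09 ranged from −1.16 to −0.90 with 1 library left out. CEBPB in hypoxia turned to −0.12 with equal FPKM totals, and with 1 library left out it ranged from −0.022 (without ctrl_normoxia replicate 1) to 0.26. ATF4 lost its hypoxia call with equal FPKM totals (limma adjusted p = 0.257) and without the variance trend (0.070), and NUPR1 lost its call with no filter (0.0782) and in 1 fit of all groups (0.0502).

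The 9 members called in hypoxia, NUPR1 included, became 0 with any library left out, where no gene at all was called by limma, the lowest adjusted p was 0.0626 to 0.105 and 4934 to 6167 genes had an unadjusted p under 0.05. A lone library was assumed to vary like the pair of the other group. List calls in hypoxia, 61, were 40 with no filter. In eKD1, 0 became 4 with no filter, 1 with equal FPKM totals and 22 in 1 fit of all groups. In eKD2, 47 became 28 with no filter and 2 without the variance trend. Between the guides, 18 became 63 in 1 fit of all groups and 0 without the trend. All 4 list counts were 0 with any library left out. Calls over all genes were 4946 in hypoxia (3024 with no filter), 10 in eKD1 (206 with no filter, 761 in 1 fit, 6 without the trend), 1477 in eKD2 (853, 2601 and 28) and 62 between the guides (260, 1391 and 5, and 105 with a mean of at least 5 FPKM). The share of calls that were higher moved from 50.3% to 28.4% in hypoxia with equal FPKM totals, and from 60.3% in eKD2 to 46.3% with median-of-ratios rescaling and 77.5% with equal FPKM totals. The causes were not tested.

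Whether libraries of the same replicate number were handled together is not stated. Deviations of same-numbered libraries correlated from −0.06 to 0.13 over 15372 genes, the highest for control normoxia with eKD1. With 2 libraries per group these correlations cannot decide it. With a replicate block, list calls were 38 in hypoxia, 0 in eKD2 and 0 between the guides, calls over all genes were 2570 in hypoxia and 0 in the other comparisons (4517 at an unadjusted limma p under 0.05 in eKD2), and ATF4 and NUPR1 had adjusted p-values of 0.0557 and 0.0653 in hypoxia.

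Depth could not be given in reads, so no interval or detection limit was set for single FPKM values, which bears most on NUPR1.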
